A study of Mus musculus with 4 samples.

Results

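The genes described here build the vesicle coats, tethers and membrane channel of the early secretory pathway. They are the protein-coding genes of the mouse annotation GRCm38 whose symbol is Sec or Arf followed by a digit, or begins with Trappc or with Cog and a digit, together with the coatomer genes and the genes of the SAR1 GTPases. By this rule 69 of 21887 protein-coding genes were taken. They fall into 13 genes of the COPII coat, 15 of the COPI coat and the ARF GTPases, 15 of the TRAPP complexes, 8 of the COG complex, 11 of the translocon, signal peptidase and SEC22 group, and 7 others that the symbols bring in. A gene is called bound when a peak or region lies within 1 kb of a start or end of its span.

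Occupancy of the transcription factor Deaf1 was measured by chromatin immunoprecipitation and sequencing (ChIP-seq) in C2C12, a mouse myoblast line of muscle precursor cells that was grown in DMEM with 10% FBS. The 4 libraries were 2 precipitated with an anti-Deaf1 antibody and 2 inputs without antibody, all from the same line and with no treatment given in the labels, so no change of occupancy between conditions was measured. The labels describe fixation in 1% formaldehyde and sonication, and in the same field call the method native, a term for unfixed chromatin. They do not say whether the replicates came from separate cultures, so differences between replicates may be technical.

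Proteins bound for the secretory pathway enter the endoplasmic reticulum (ER) through the SEC61 channel, where the signal peptidase trims them. COPII vesicles, started by the GTPase SAR1, carry cargo from the ER towards the Golgi, and COPI vesicles, started by ARF GTPases, bring escaped ER proteins back. TRAPP and COG are large tethers that help vesicles dock at the Golgi, TRAPP also by activating RAB GTPases. Deaf1 binds DNA through a SAND domain that is known for contacting the letters TTCG. The core bound by factors of the ETS family reads CCGGAA, which on the opposite strand reads TTCCGG.

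Because the results turn on where peaks sit at promoters and on which letters lie there, 8 promoter stretches are shown first. Each holds the 130 bases before the annotated start, read 5′ to 3′ along the gene, from RefSeq on GRCm38.p6, and capitals mark each whole CCGGAA or TTCCGG. The first 4 belong to bound genes with a match: Sec13 (chr6:113740682-113740811, minus strand), Sec23a (chr12:59012018-59012147, minus strand) and Trappc10 (chr10:78244646-78244775, minus strand) were bound in both replicates, Trappc6b (chr12:59061473-59061602, minus strand) in replicate 2 only.
Sec13: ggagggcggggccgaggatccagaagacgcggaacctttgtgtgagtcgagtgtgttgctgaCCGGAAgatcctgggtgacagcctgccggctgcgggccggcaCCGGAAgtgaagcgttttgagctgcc
Sec23a: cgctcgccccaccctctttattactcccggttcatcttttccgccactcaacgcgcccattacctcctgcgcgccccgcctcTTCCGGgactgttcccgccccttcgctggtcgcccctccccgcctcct
Trappc10: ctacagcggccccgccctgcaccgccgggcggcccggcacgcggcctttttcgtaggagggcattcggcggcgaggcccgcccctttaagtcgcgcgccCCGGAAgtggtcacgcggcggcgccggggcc
Trappc6b: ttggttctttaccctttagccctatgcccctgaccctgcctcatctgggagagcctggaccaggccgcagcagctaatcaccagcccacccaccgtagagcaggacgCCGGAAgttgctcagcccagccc
Sec13 has 2 matches in this stretch, and the match nearest to the summit (the point of highest ChIP signal) lay 4.5 bp from it in replicate 1 and 11.5 bp in replicate 2, measured from the match's centre. In Sec23a the summit lay 43.5 bp from the match in replicate 1 and 6.5 bp in replicate 2, and in Trappc6b it lay 4.5 bp from the nearest match in replicate 2.

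Another 4 stretches serve as contrasts. Trappc11 (chr8:47533471-47533600, minus strand) was bound in both replicates without a match. Sec23b (chr2:144556099-144556228, plus strand), the paralog of Sec23a, and Copb1 (chr7:114254681-114254810, minus strand) were in no list and have no match. Copb2 (chr9:98563601-98563730, plus strand) was in no list although it has one.
Trappc11: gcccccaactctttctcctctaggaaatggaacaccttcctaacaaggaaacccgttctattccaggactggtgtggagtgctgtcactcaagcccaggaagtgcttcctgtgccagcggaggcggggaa
Sec23b: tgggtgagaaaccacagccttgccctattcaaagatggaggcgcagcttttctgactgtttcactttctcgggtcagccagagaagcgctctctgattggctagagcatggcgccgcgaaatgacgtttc
Copb1: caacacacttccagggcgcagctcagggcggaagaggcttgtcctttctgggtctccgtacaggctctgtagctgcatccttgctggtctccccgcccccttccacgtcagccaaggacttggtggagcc
Copb2: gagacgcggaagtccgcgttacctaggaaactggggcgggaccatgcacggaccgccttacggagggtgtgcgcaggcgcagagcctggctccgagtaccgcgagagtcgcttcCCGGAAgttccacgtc
Copb2 thus has CCGGAA without a called peak, and Trappc11 a called peak without CCGGAA. No match here means no whole CCGGAA or TTCCGG, and the shorter string GGAAG does occur in the Trappc11 and Copb1 stretches.

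Peaks were listed for each ChIP library, 1860 in replicate 1 and 3126 in replicate 2, and 1550 regions formed the authors' combined list of the pair. That list gives a score tied to the irreproducible discovery rate (IDR), an estimate of the chance that a region's rank does not repeat between the replicates. Fold enrichment is the authors' ratio, at the summit, of ChIP signal over local background. The number of ChIP fragments stacked at a summit, called the pileup here, was recovered from the deposited fold and p. The background expected anywhere in the genome was 1.80 fragments in replicate 1 and 2.09 in replicate 2, and the number of reads per library is not given in the sources used here. Intervals on pileups are exact 95% Poisson intervals and cover counting error only.

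The combined list had a region at 13 of the 69 genes (18.8%), where 6.99% of all protein-coding genes had one. Read separately, the list of replicate 1 had a peak at 13 genes (18.8%), against 7.53% of all genes, and that of replicate 2 at 29 (42.0%), against 11.2%. All 13 genes of the combined list were bound in each replicate: Sar1a, Sec13, Sec23a, Sec24c, Copa, Cope, Trappc3, Trappc10, Trappc11, Cog3, Cog8, Sec22b and Sec61a1. The other 16 of replicate 2 had no peak in replicate 1, and 40 genes were in no list. None of the 13 genes bound in replicate 1 lacked a peak in replicate 2, and of all 1647 protein-coding genes bound in replicate 1, 102 lacked one. With 1 cell state and no second condition, these are counts and shares and carry no test.

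Stricter ways of counting gave fewer genes. At an IDR of 0.05 or lower (a score of at least 540), 5 of the 69 genes remained (7.25%), against 3.13% of all genes: Cog8, Sar1a, Cog3, Trappc10 and Sec22b. Where a region was given only to the gene whose end lay nearest, 11 genes were bound (15.9%), against 5.52%, and Copa and Cope were lost to a neighbour. Counted at annotated starts only, 12 of the 60 genes in the RefSeq promoter table were bound (20%), against 6.81% of the genes in that table. The genes have more CpG-rich promoters than the genome at large, 45 of 60 (75%) against 45.7%, where CpG-rich means at least 50% GC and an observed over expected CpG of at least 0.6 in 300 bases. Among genes with such promoters alone, the combined list held 11 of 45 (24.4%), against 12.7% of all genes with such promoters. The same counts were 11 of 45 in replicate 1, against 13.6%, and 18 of 45 (40.0%) in replicate 2, against 20.6%.

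**Figure D1:**
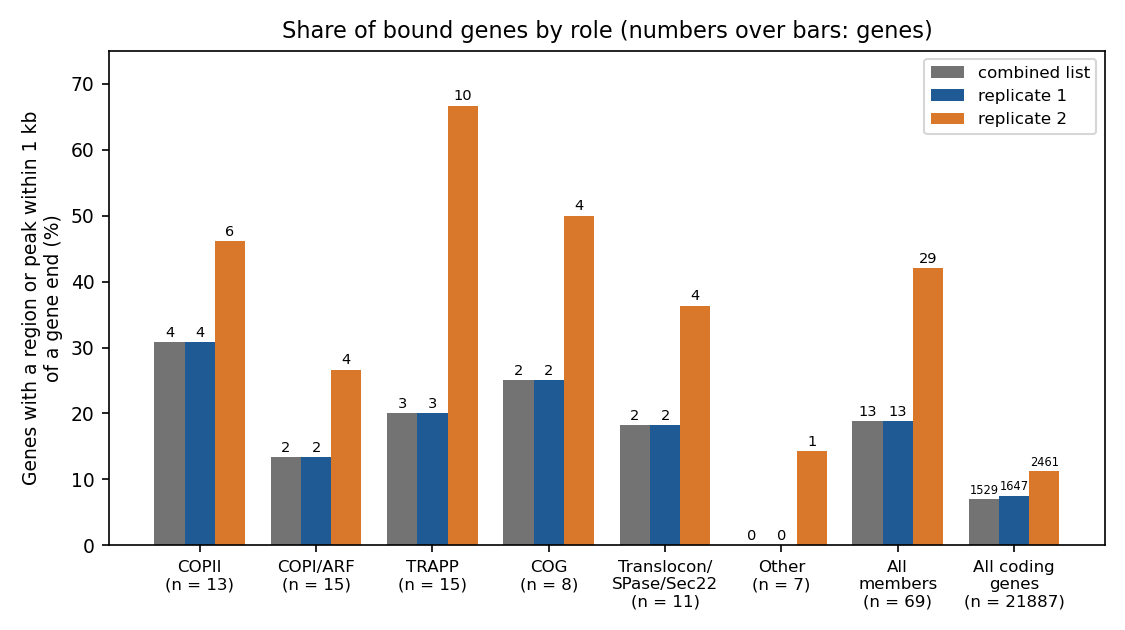
Share of genes with a region or peak within 1 kb of a gene end (percent, vertical axis) by role, for the combined list and each replicate, with the number of genes over each bar. TRAPP genes have the tallest replicate 2 bar, 10 of 15, and their combined list bar, 3 of 15, is lower than that of COPII, 4 of 13. All protein-coding genes stand at 6.99% in the combined list and 11.2% in replicate 2.

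In the COPII coat, 4 of 13 genes were bound in both replicates and 2 more in replicate 2 only. The combined list held 30.8% of COPII genes, against 6.99% of all protein-coding genes, and replicate 2 held 46.2%, against 11.2%. Sar1a encodes the GTPase that starts coat assembly, and its region at chr10:61680243-61680413 had a fold enrichment of 8.92 in replicate 1 and 11.1 in replicate 2 (10.0 ± 1.6, SD, n = 2), with pileups of 24 (15.4 to 35.7) and 38 (26.9 to 52.2). The summits lay 2 bp before and 2 bp after the annotated start, and the IDR was 0.0201. Sec13 encodes an outer coat subunit that is also part of the nuclear pore. At its region (chr6:113740670-113740788) the fold was higher in replicate 1, 8.92 against 6.34 (7.63 ± 1.8, SD, n = 2), although the pileup was lower, 24 (15.4 to 35.7) against 36 (25.2 to 49.8). The local background there was 1.80 fragments in replicate 1 and 4.84 in replicate 2, so fold and pileup ordered the replicates differently.

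Sec23a and Sec24c form the inner layer of the coat, SEC23 as the activator of SAR1's GTPase and SEC24 as the cargo adaptor. Sec23a (chr12:59011992-59012255) had folds of 6.42 and 7.48 (6.95 ± 0.74, SD, n = 2) with pileups of 17 and 23, and Sec24c (chr14:20674217-20674357) had 5.38 and 7.43 (6.41 ± 1.5, SD, n = 2) with 28 fragments in each replicate. Neither reached an IDR of 0.05: it was 0.147 for Sec23a and 0.0772 for Sec24c. Replicate 2 alone had peaks at Sar1b, the paralog of Sar1a, with a fold of 8.46 and a pileup of 32 (21.9 to 45.2), and at Sec31a, the outer coat rod, with 7.12 and 21 (13.0 to 32.1). Both values lie within the range of the replicate 2 folds of the 13 genes of the combined list, 6.34 to 15.3. The 7 COPII genes in no list were Sec16a and Sec16b, the exit site scaffolds, with Sec23b, Sec24a, Sec24b, Sec24d and Sec31b.

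Of the COPI and ARF genes, 2 of 15 were in the combined list, Cope and Copa, and both regions lay nearer to another gene's end in each replicate. Cope encodes the epsilon subunit of coatomer. Its region (chr8:70302369-70302793) was the widest of the group at 425 bp and had folds of 12.5 and 14.6 (13.5 ± 1.5, SD, n = 2), with pileups of 34 (23.5 to 47.5) and 44 (32.0 to 59.1). These summits lay 282 and 266 bp before the start of Cope and 14 and 30 bp from an end of Ddx49, an RNA helicase gene. Replicate 1 had a second, weaker peak in the region, 52 bp before the start of Cope, with a fold of 5.00 and 13 fragments. High fold did not bring a low IDR at Cope, where it was 0.341.

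Copa encodes the alpha subunit of coatomer. Its region (chr1:172082656-172082853) had the lowest mean fold of the group, from 4.31 and 6.57 (5.44 ± 1.6, SD, n = 2), with 26 (16.98 to 38.1) and 31 (21.1 to 44.0) fragments over backgrounds of 5.27 and 3.87. The summits lay 234 and 242 bp after the start of Copa and 26 and 18 bp from an end of Ncstn, a gamma-secretase subunit gene. Replicate 2 alone had peaks at Arf4, a Golgi ARF, with a fold of 7.45, and at Arf6, the ARF of the cell surface and endosomes, with 5.5. The 11 genes in no list were Copb1, Copb2, Copg1, Copg2, Copz1, Copz2, Arcn1, Arf1, Arf2, Arf3 and Arf5. Most coatomer genes thus had no called peak at either end, as was the case for most protein-coding genes. COPI and ARF genes stood at 13.3% in the combined list, against 6.99% of all protein-coding genes, and at 26.7% in replicate 2, against 11.2%.

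TRAPP had the largest share of bound genes among the roles in replicate 2, 10 of 15 (66.7%), against 11.2% of all protein-coding genes. In the combined list it had 3 of 15 (20%), against 6.99%, which was below COPII (30.8%) and COG (25%). Trappc10, a subunit of the TRAPPII complex, was the only gene of the group with 2 regions. The region at its start (chr10:78244600-78244704) had folds of 6.78 and 8.42 (7.60 ± 1.2, SD, n = 2) with pileups of 18 and 25, and summits at the start itself and 6 bp after it. The region at its far end (chr10:78184953-78185260) had folds of 5.01 and 15.3 (10.1 ± 7.2, SD, n = 2), the widest gap between replicates in the group. The pileups there differed less, 48 (35.4 to 63.6) against 61 (46.7 to 78.4), over local backgrounds of 8.78 and 3.06 fragments. Its summits lay 274 and 252 bp from the Trappc10 end and 23 and 1 bp from an end of Pwp2, a ribosome biogenesis gene.

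Trappc11, a TRAPPIII subunit in which human mutations cause a muscular dystrophy, had a region at chr8:47533435-47533540 with folds of 8.92 and 7.77 (8.35 ± 0.81, SD, n = 2). Its pileups of 24 (15.4 to 35.7) and 23 (14.6 to 34.5) were nearly equal, and its summits lay 23 and 17 bp before the start. Trappc3, a subunit of the TRAPP core, had the highest IDR of any region at a gene end, 0.511, a value it shared with other regions. Its folds were 4.40 and 6.80 (5.6 ± 1.7, SD, n = 2), from 15 (8.40 to 24.7) and 20 (12.2 to 30.9) fragments at chr4:126262165-126262395. Of the 3 TRAPP genes, then, only Trappc10 had a region with an IDR of 0.05 or lower, and that region was the one at the far end.

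A further 7 TRAPP genes were bound in replicate 2 only. Among the core subunits, Trappc4 had a fold of 7.45 and 22 fragments, Trappc6b 6.41 and 24, Trappc1 and Trappc5 each 4.86 and 14, and Trappc6a 4.10 and 15. Trappc8 of TRAPPIII had 8.09 and 24 fragments, and Trappc9 of TRAPPII had 5.72 and 19. The 15 fragments at Trappc6a carry an interval of 8.40 to 24.7, which overlaps that of every other gene in this set. The Trappc4 summit lay 100 bp from its own gene end and 66 bp from an end of Rps25, a ribosomal protein gene. The TRAPP genes in no list were Trappc2, Trappc2l, Trappc3l, Trappc12 and Trappc13.

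COG genes included the region with the highest mean fold of the group, although the far end of Trappc10 had higher pileups in both replicates. Cog8, a subunit of the second lobe of COG, had a region at chr8:107056625-107056942 with folds of 15.3 and 15.1 (15.2 ± 0.16, SD, n = 2) and pileups of 42 (30.3 to 56.8) and 58 (44.0 to 74.98). Its IDR of 0.00912 was the lowest of the group. The 2 summits were not at the same place: that of replicate 1 lay 127 bp before the Cog8 start and 13 bp from an end of the neighbouring Nip7, and that of replicate 2 lay 12 bp before the Cog8 start and 128 bp from Nip7. Cog3, of the first lobe, had a region at chr14:75754468-75754847 with folds of 7.98 and 12.6 (10.3 ± 3.3, SD, n = 2), pileups of 28 (18.6 to 40.5) and 38 (26.9 to 52.2), and an IDR of 0.0196. Replicate 2 alone had weaker peaks at Cog2, with a fold of 4.36 and 16 fragments, and at Cog5, with 4.28 and 24. The Cog5 summit lay 17 bp from its own gene end and 30 bp from an end of Dus4l. Cog1, Cog4, Cog6 and Cog7 were in no list. COG genes thus stood at 25% in the combined list, against 6.99% of all protein-coding genes, and at 50% in replicate 2, against 11.2%.

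In the translocon, signal peptidase and SEC22 group, 2 of 11 genes were in the combined list and 2 more in replicate 2 only. The shares were 18.2% in the combined list, against 6.99% of all protein-coding genes, and 36.4% in replicate 2, against 11.2%. Sec22b, an ER to Golgi SNARE, had a region at chr3:97901111-97901256 with folds of 5.93 and 11.1 (8.52 ± 3.7, SD, n = 2), pileups of 31 (21.1 to 44.0) and 39 (27.7 to 53.3), and an IDR of 0.0320. Sec61a1, the channel-forming subunit, had folds of 6.42 and 8.09 (7.26 ± 1.2, SD, n = 2) at chr6:88518811-88519026, with pileups of 17 and 24 and summits 187 and 136 bp from a gene end. In replicate 2 alone, Sec61g, a small translocon subunit, had a fold of 9.57 and 29 fragments (19.4 to 41.6), the highest fold among the 16 genes bound in that replicate only. Sec11a, the catalytic signal peptidase subunit, had 7.95 and 30 fragments. The 7 in no list were Sec61a2, Sec61b, Sec62, Sec63, Sec11c, Sec22a and Sec22c.

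Symbols alone brought in 7 further genes. Sec1 encodes a fucosyltransferase and Sec14l1 to Sec14l5 encode lipid-binding proteins of the SEC14 family, and none of these 6 was in a list. Sec23ip, which encodes a binding partner of SEC23 at ER exit sites, was bound in replicate 2 with a fold of 6.80 and 20 fragments. Because Sec1 and the Sec14l genes were in no list, leaving them out could not change the counts of bound genes. The shares became 20.6% in the combined list, against 6.99% of all genes, and 20.6% in replicate 1, against 7.53%. In replicate 2 the share became 46.0%, against 11.2%.

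**Figure D2:**
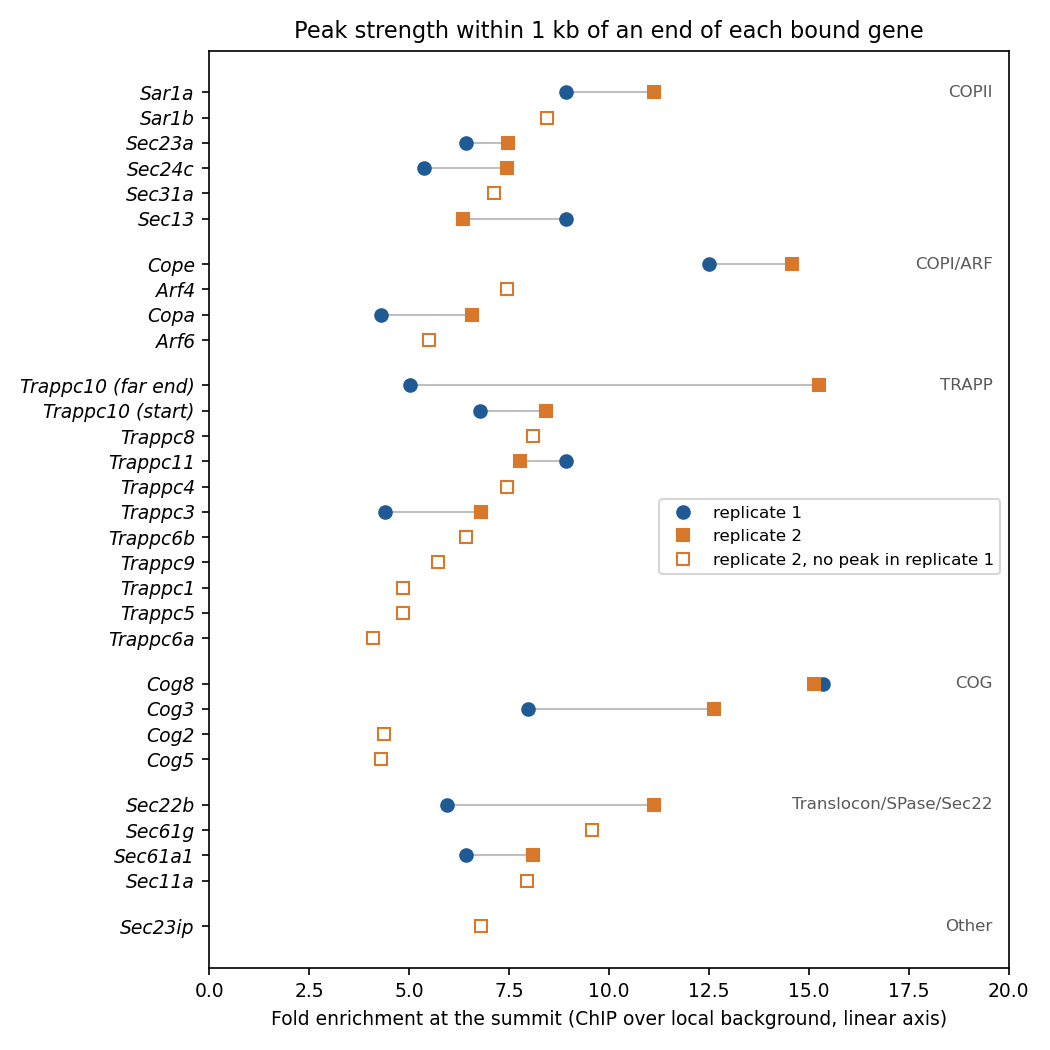
Fold enrichment over local background (horizontal axis, ratio) of the peaks at bound genes, by role, with replicate 1 as circles, replicate 2 as filled squares joined to it, and open squares for genes without a peak in replicate 1; Trappc10 has a row for each of its 2 regions. Cog8 has the closest pair, at 15.3 and 15.1, and the far end of Trappc10 the widest, at 5.01 and 15.3.

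Some paralogs within the group differed in their lists and others were alike. Of all protein-coding genes 6.99% were in the combined list and 11.2% were bound in replicate 2. A bound gene with an unbound paralog is therefore not by itself a trait of this group. Sar1a was bound in both replicates and Sar1b in replicate 2 only. Sec23a, Sec24c, Sec61a1, Sec22b and Trappc3 were in the combined list while Sec23b, the other Sec24 genes, Sec61a2, Sec22a, Sec22c and Trappc3l were in no list. Sec31a and Sec11a were bound in replicate 2, and Sec31b and Sec11c in none. Trappc6a and Trappc6b had a peak in replicate 2 each, and both members of the Copg and Copz pairs lacked one. Sec16a and Sec16b, and likewise Trappc2 and Trappc2l, were also alike in being in no list. Absence from a list means that no peak was called, and signal at these genes was not analysed here.

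Across the 14 regions of the combined list (13 genes, with 2 regions at Trappc10), fold was higher in replicate 2 at 11, with a median ratio of 1.25. The pileup was higher in replicate 2 at 12, equal at 1, and had a median ratio of 1.34, against a ratio of 1.16 between the genome-wide backgrounds. Over all 1249 regions of the combined list at gene ends these median ratios were 1.13 for fold and 1.30 for pileup. In all 14 regions the 2 counting intervals overlapped, and the difference itself was not tested. Pileups ran from 15 to 48 in replicate 1 (median 25) and from 20 to 61 in replicate 2 (median 33.5), beside medians of 24 and 32 over all regions at gene ends. The median IDR was 0.0852, beside 0.0848 over those 1249 regions. By strength, then, the regions at these genes lay near the middle of the regions at gene ends.

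**Figure D3:**
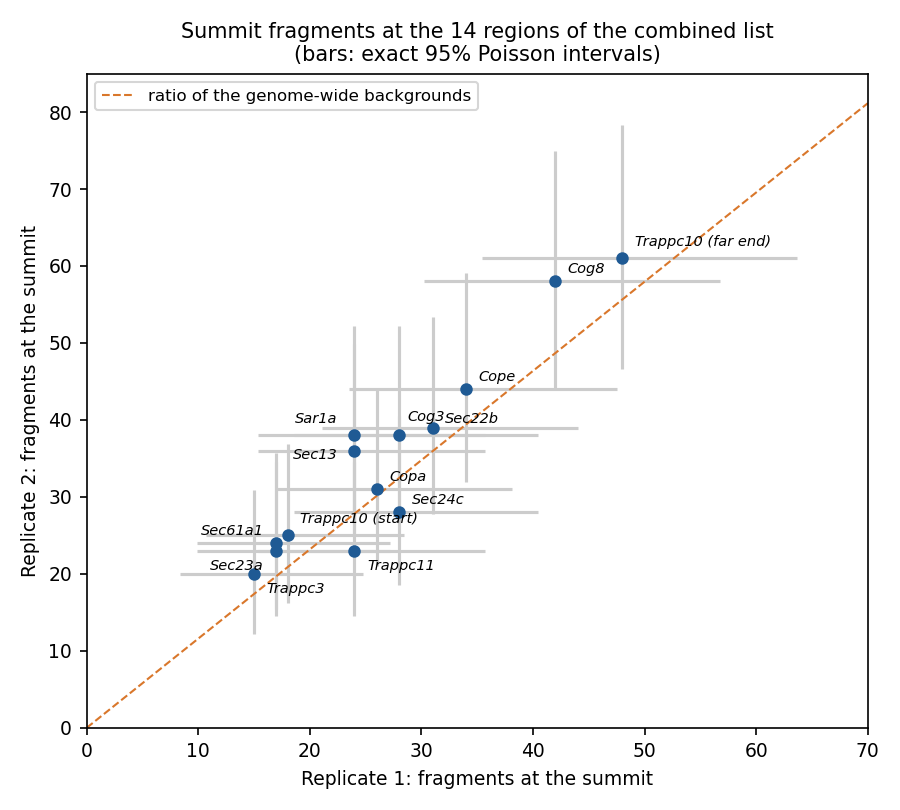
ChIP fragments at the summit in replicate 1 (horizontal axis) and replicate 2 (vertical axis) for the 14 regions, with exact 95% Poisson intervals; the dashed line is the ratio of the genome-wide backgrounds, 1.16. The points run from Trappc3 at 15 and 20 to the far end of Trappc10 at 48 and 61, and the intervals of the 2 replicates overlap at each region.

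Taking the strongest peak at each bound gene, the median fold was 6.78 in replicate 1 (13 genes) and 7.45 in replicate 2 (29 genes), beside 7.495 and 7.36 over all bound genes. The 16 genes bound in replicate 2 only had folds from 4.10 to 9.57 (median 6.60) and pileups from 14 to 32 (median 21.5). The 13 genes of the combined list had replicate 2 folds from 6.34 to 15.3 (median 8.09) and pileups from 20 to 61 (median 36), and the ranges of the sets overlapped. The same order held for all genes, with a median fold of 5.83 for the 916 bound in replicate 2 only and 8.74 for the 1529 of the combined list. The −log10 q of these 16 ran from 3.38 to 19.0, and 12 reached 5.

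Peaks lay close to gene ends. In replicate 1 the 15 peaks had a median distance of 58 bp from summit to the nearer end, and in replicate 2 the 30 peaks had 45 bp. Over all bound genes, taking only the nearest summit of each gene, the median was 50 bp in each replicate. Within 100 bp lay 9 of the 15 and 23 of the 30 summits, beside 66.5% and 65.3% of all bound genes counted by nearest summit. The 2 measures differ, since the group was counted by peak. The farthest was that of Sec61g, at 292 bp. For genes with an annotated start, 8 of 14 summits in replicate 1 and 18 of 24 in replicate 2 lay within 100 bp of it. Before the start lay 11 summits in replicate 1 and 16 in replicate 2, and after it 2 and 8, among them the far end of Trappc10 at 59497 and 59475 bp. Measured to the nearer gene end, no summit lay beyond the 292 bp of Sec61g. Past the 1 kb limit, the next replicate 2 peaks had their nearer edges 1811 bp from Arf5, 2177 bp from Sar1a and 4730 bp from Sec22c. Those 3 peaks had folds of 6.80, 5.72 and 5.90, and lay 16, 21 and 27 bp from an end of Gcc1, Tysnd1 and Ss18l2.

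**Figure D4:**
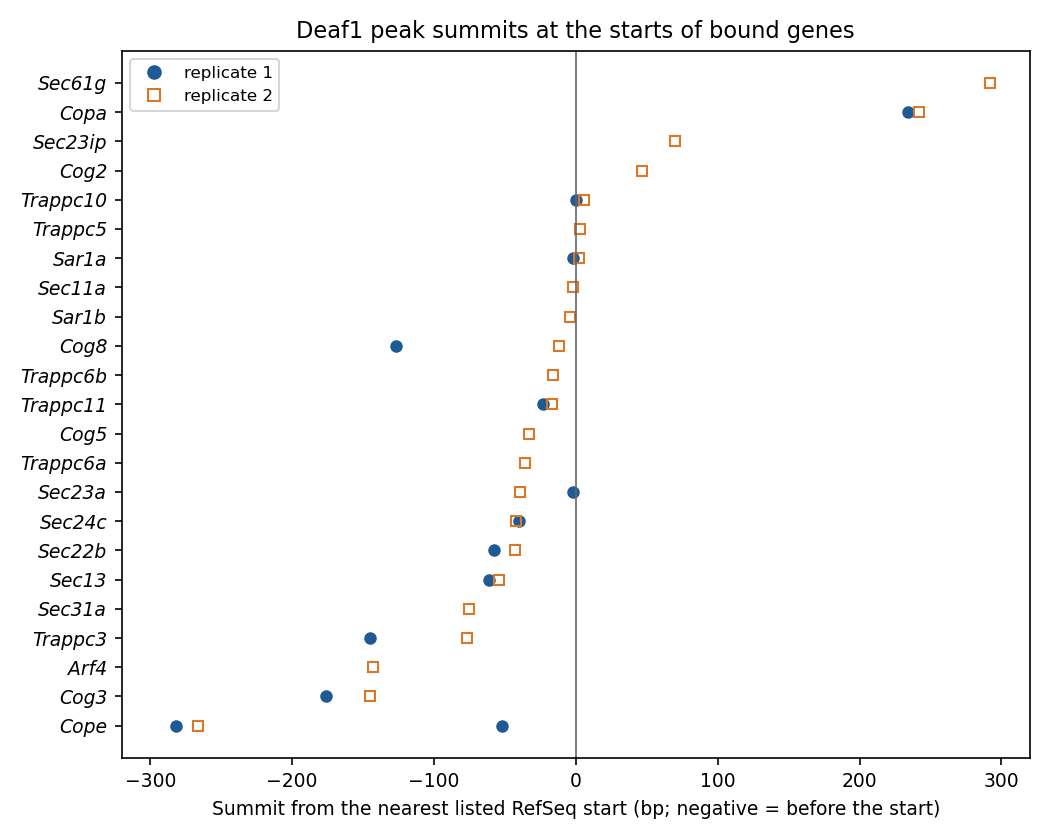
Distance of each peak summit from the nearest annotated RefSeq start (bp, horizontal axis, negative before the start) for bound genes in the promoter table, without the far end of Trappc10, which lies off the axis. Most summits shown sit within 100 bp of the start, and the farthest shown belong to Sec61g at 292 bp after it and Cope at 282 and 266 bp before it.

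RefSeq promoter windows of 300 bases (250 before and 50 after the start) were at hand for 60 of the 69 genes and for 17492 protein-coding genes. Both strands were searched for 13 short letter strings, chosen when the sequences and the bound genes were already known, so the counts are descriptions. CCGGAA occurred in 20 of the 23 windows of genes bound in any list (87.0%) and in 9 of 37 windows of genes in no list (24.3%). A bound gene has a peak within 1 kb of a gene end, which need not lie in the window. At Copa and Sec61g the window held CCGGAA but the peaks lay outside it. Over all windows its share was 19.1%, with 59.3% among all genes bound in any list and 13.6% among the rest. The 3 bound genes without it were Trappc11, Cog5 and Arf4. Counted in the 250 bases before the start alone, 14 of the 23 windows held it. In CpG-rich windows it was found in 15 of 18 bound and 8 of 27 unbound genes of the group, beside 63.3% and 22.7% of all genes with such windows. The difference in its share was therefore also present among promoters of like CpG class, in the group and in all genes.

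TTCG, the letters tied to the SAND domain, occurred in 14 of 23 windows of bound genes (60.9%) and in 19 of 37 of unbound genes (51.4%), beside 49.0% of all windows. Over all genes the shares were 69.8% in any list and 46.2% in none, and within CpG-rich windows 73.9% and 64.7%. In the CpG-rich windows of the group it was in 11 of 18 bound and 16 of 27 unbound genes. The shorter string TTCCG, contained in TTCCGG, was in all 23 bound windows and in 24 of 37 unbound ones, beside 36.0% of all windows. Over all genes its shares were 79.2% in any list and 30.1% in none, and within CpG-rich windows 83.3% and 47.6%. In the CpG-rich windows of the group TTCCG was in all 18 bound and in 22 of 27 unbound genes (81.5%). A match of letters is a description and not a binding site.

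Letters were also counted around summits, only where a promoter window covered the bases around the summit. This held for 11 of the 15 peaks of the group in replicate 1 and 18 of the 30 in replicate 2. Within 25 bp of the summit, CCGGAA was found at 6 of 11 summits of the group in replicate 1 and at 9 of 18 in replicate 2, and TTCG at 2 of 11 and 4 of 18. Over all genes CCGGAA was within 25 bp of 50.1% of 1006 such summits in replicate 1 and 48.6% of 1530 in replicate 2. At points shifted by 75 bp these shares were 11.6% and 9.06%. For TTCG these shares were 19.9% and 19.8% at the summit, and 22.4% and 20.6% at the shifted points. CCGGAA did not stand alone, since TGACGT was found at 11.4% and 10.7% of summits and at 3.06% and 2.97% of shifted points. In the group TGACGT was at 1 of 11 and 0 of 18 summits. It was in 6 of 23 bound and 12 of 37 unbound windows of the group, beside 8.76% of all windows. Summits and starts lie close together, so distance from the summit and distance from the start could not be told apart here. The nearest match was centred 0.5 bp from the replicate 1 summit and 5.5 bp from the replicate 2 summit at Trappc10. At Sar1a these distances were 8.5 and 4.5 bp, and at Cog3 30.5 and 0.5 bp.

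**Figure D5:**
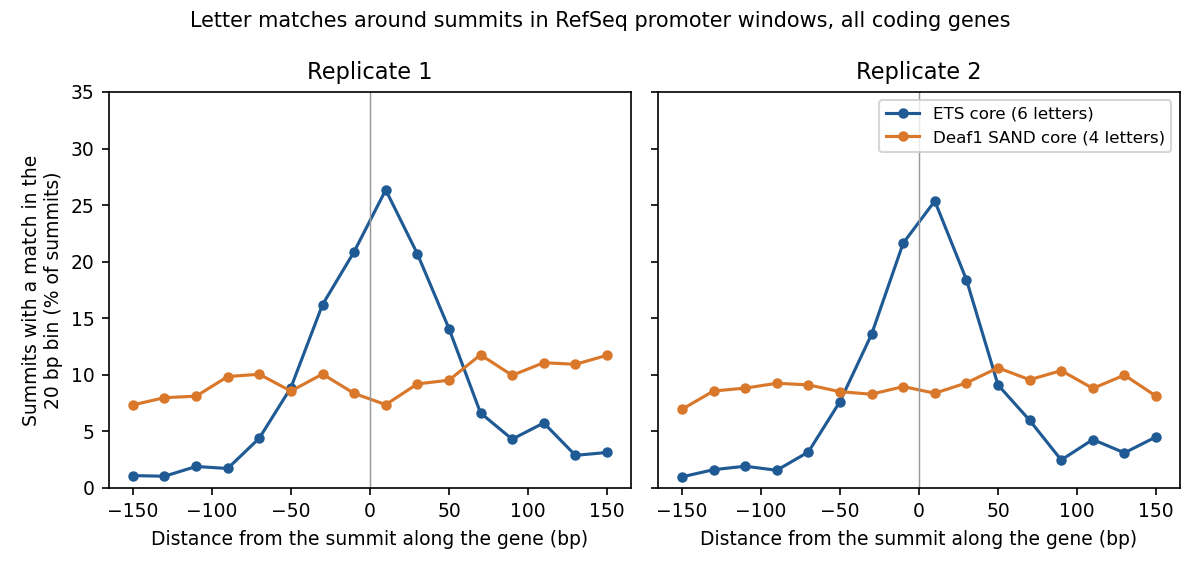
Share of summits (percent, vertical axis) with a match in each 20 bp bin by distance from the summit along the gene, for all coding genes with a summit in a promoter window, by replicate. The 6-letter string CCGGAA, labelled ETS core, peaks beside the summit, at 26.3% in replicate 1 and 25.4% in replicate 2. The 4-letter TTCG, labelled Deaf1 SAND core, has no such peak, and the other strings searched are not drawn.

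Base composition was compared between the windows of bound and unbound genes of the group. Median GC was 59.0% in bound and 61.3% in unbound windows, and the median number of CpG was 21 in each. The median observed over expected CpG was 0.893 in bound and 0.765 in unbound windows. CpG-rich windows made up 91.7% of those of the combined list, 63.6% of those bound in replicate 2 only and 73.0% of those in no list. All windows together had a median GC of 56.3% and a median of 13 CpG.

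Other genes that work with these machineries were counted in the same way, from lists made for this description. Of 71 such genes, 18 were in the combined list (25.4%), against 6.99% of all protein-coding genes. In replicate 2, 29 were bound (40.8%), against 11.2%. Translocation partners had 6 of 17 in the combined list (35.3%). These were Srp19, Srp54a and Srp72 of the signal recognition particle, its receptor Srpr, the translocon-associated Ssr2 and the signal peptidase subunit Spcs1. Srp19 had folds of 16.2 and 19.4 (17.8 ± 2.3, SD, n = 2), above those of each of the 14 regions described above, while Ssr2 had 17.6 and 8.05 (12.8 ± 6.8, SD, n = 2). The other 4 had mean folds from 5.45 for Srp72 to 7.72 for Srpr, whose region lay nearer to Foxred1, as that of Spcs1 did to Glt8d1.

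Among ARF regulators 3 of 10 were in the combined list (30%), Arfip1, Arfip2 and Arfrp1. Arfrp1, an ARF-related GTPase of the Golgi, had the highest mean fold of them, 9.64 ± 1.0 (SD, n = 2). Among SNAREs and tethers 5 of 24 were in the combined list (20.8%), Bet1l, Gosr2, Ykt6, Use1 and Napa, led by Bet1l with 8.60 ± 0.29 (SD, n = 2). Of cargo receptors and exit site proteins 4 of 20 were in it (20%), Tmed2, Tmed7, Tmed10 and Lman2, with Tmed7, a p24 family member, at 12.3 ± 1.4 (SD, n = 2). The regions at Arfip1, Arfip2, Use1, Ykt6, Tmed2 and Srp72 had an IDR of 0.511, the highest of any region at a gene end. A list from a later step of traffic, clathrin and its adaptors, had 7 of 21 in the combined list (33.3%) and 10 in replicate 2 (47.6%). Its members in the combined list were Ap1m1, Ap2a1, Ap2b1, Ap3s1, Ap4b1, Ap4m1 and Cltc. Of these, Ap1m1, Ap2a1, Ap3s1 and Cltc also had an IDR of 0.511. The coat and TRAPP genes stood at 18.8% and 42.0% in the same lists, and all protein-coding genes at 6.99% and 11.2%. The difference between the gene lists was not tested.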

How the data were processed

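The files were a peak list for each of the 2 ChIP libraries and a combined list of the pair, and the inputs' own values were not analysed here. The submitters' processing notes name FastQC 0.11.8, BWA 0.7.17-r1198, MACS2 2.1.2 and the build mm10, without settings. The deposited fold enrichment is the authors' ratio over local background, and the deposited p and q are −log10 values. The deposited score of the combined list follows the IDR program, where 540 stands for an IDR of 0.05 and 830 for 0.01, and IDR was computed from it. Its 6 unnamed columns of single samples were not used.

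Pileups were recovered as the whole number that gives both the fold, (pileup + 1)/(background + 1), and the Poisson p. This worked for 100% of peaks, with −log10 p off by 5.1e-05 at most, and was tested on simulated data. Python 3.11.15, numpy 2.4.6, pandas 2.3.3 and scipy 1.17.1 were used. Gene spans and promoter windows came from RefSeq on GRCm38.p6, and starts were known only for genes with a window. Regions were matched to peaks by at least 1 bp of overlap.

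The genes and lists were chosen with earlier results of these data known. Trappc14 matched no symbol of the gene table. Named were all bound genes, those with a peak between 1 and 5 kb, and partner genes in the combined list. No test was run, since there was 1 condition. The 13 strings searched, with their share of all windows, were TTCG (49.0%), its longer forms TTCGG (21.7%) and TTCGGG (8.02%), the string CCGGAA (19.1%), the overlapping TTCCG (36.0%) and GGAAG (72.1%), the GC box GGGCGG (46.3%), the CCAAT box (39.0%), the string TGACGT (8.76%), the E box CACGTG (7.90%), the string GCGCATGC (3.61%), the string AAGATGG (6.37%) and ACTACA (10.7%). The string counts, the CpG-rich comparison and their alternatives were added after the data had been seen. Other alternatives were windows of 500 bp and 5 kb, stricter scores and q, nearest ends, starts only and single replicates.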

Additional observations from a re-analysis of the deposited data

How the results depend on the processing

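The count of 13 bound genes in the combined list was 13 with windows of 500 bp and 5 kb and with the whole gene span, 12 at starts only and 11 with nearest ends only. The 13 genes are 18.8% of the group. The share of all protein-coding genes moved, to 6.53% at 500 bp, 8.77% at 5 kb and 7.68% with the whole span. At starts only it was 20% against 6.81%, and with nearest ends only 15.9% against 5.52%. With scores of 540 or more the count fell to 5 (7.25%, against 3.13% of all genes). With 830 or more it fell to 1, Cog8 (1.45%, against 0.393%). Taking a single replicate in place of the combined list gave 13 in replicate 1 (18.8%, against 7.53% of all genes) and 29 in replicate 2 (42.0%, against 11.2%). In replicate 1 the count was 12 at −log10 q of at least 5 (17.4%, against 6.78% of all genes). In replicate 2 the count of 29 became 31 at 5 kb (44.9%, against 14.1% of all genes) and 25 at −log10 q of at least 5 (36.2%, against 10.1%). It was 18 among genes with a CpG-rich promoter, where fewer genes were counted (40.0%, against 20.6%). The median fold in replicate 1 moved from 6.78 to 7.38 at −log10 q of at least 5, and that in replicate 2 from 7.45 to 8.09 over genes of the combined list only. At a score of 540 the genes lost were 8 of 13 (Copa, Cope, Sec13, Sec23a, Sec24c, Sec61a1, Trappc3 and Trappc11). No paired analysis was possible because no result comes from a test and the inputs gave no values of their own. Pileups of 15 to 61 limit each region to wide counting intervals, and whether duplicate reads were removed is not given in the sources used here. Each gene has 1 span without internal starts, and a shared end cannot be assigned to 1 of 2 neighbours.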
